A study of Mus musculus with 23 samples.

Results

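The mouse genes Mcpt1, Mcpt2, Mcpt4, Mcpt9, Cma1 and Cma2 encode chymotrypsin-like serine proteases of mast cells and lie side by side on chromosome 14. They were taken by symbol from a table of 55487 genes, of which they are 6, and were followed in RNA-seq of whole jejunum of Cpa3Cre/+ and Cpa3+/+ mice. All 6 passed the filter on low counts.

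Jejunum with fat and Peyer's patches removed was taken from mice of each genotype in 5 states. There were 11 Cpa3Cre/+ libraries, namely 2 naive, 2 immunized, 2 of challenge day 1, 2 of day 3 and 3 of day 5. The Cpa3+/+ (wild type) libraries numbered 12, namely 3 naive, 2 immunized, 3 of day 1, 2 of day 3 and 2 of day 5. Naive mice were untreated. Immunized mice had 25 µg ovalbumin with 2 mg alum given intraperitoneally on days 0 and 14. Challenged mice had the same immunization and could then choose between plain water and water holding 20% egg white and 8% sugar, on day 20, on days 20 to 22 or on days 20 to 24. These states are called day 1, day 3 and day 5. The series asked how expression differs in Cpa3Cre/+ mice, which its design text calls mast cell-deficient. In these mice Cre recombinase is expressed from 1 allele of the carboxypeptidase A3 gene, a gene of mast cells and their progenitors, and the enzyme is toxic to the cells that make it. Of the libraries, 18 were from females and 5 from males, and all but 1 of the males were Cpa3Cre/+. The labels give no age, do not say how many animals stand behind a library, and do not give the amount of egg white drunk.

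Mast cells store proteases in their granules at high concentration and release them when antigen cross-links IgE on the cell surface. In mice, mast cells of the gut epithelium and lamina propria (mucosal type) are known for the chymases Mcpt1 and Mcpt2, while those of skin, peritoneum and submucosa (connective tissue type) are known for Mcpt4 and Cma1 together with tryptases and carboxypeptidase A3. Mcpt9 is known mainly from mast cells of the mouse uterus. Mcpt1 released in the gut reaches the blood and acts on tight junctions of the epithelium, and it is used as a serum marker of mucosal mast cell activation in mice. In RNA of a whole tissue, fewer cells of a type and less RNA per cell cannot be told apart.

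The genes span 120.9 kb of chromosome 14 (GRCm38 coordinates, GENCODE vM21 annotation). From low to high coordinate they are Cma1 (ENSMUSG00000022225, chr14:55941451-55944675, minus strand), Cma2 (ENSMUSG00000068289, chr14:55950980-55974031, plus strand), Mcpt1 (ENSMUSG00000022227, chr14:56017971-56020384, plus strand), Mcpt9 (ENSMUSG00000071361, chr14:56026864-56030495, minus strand), Mcpt2 (ENSMUSG00000022226, chr14:56042041-56044642, plus strand) and Mcpt4 (ENSMUSG00000061068, chr14:56059629-56062313, minus strand). All are annotated as protein coding, and the counts cover their exons. Cma2 shares exon bases with the pseudogene Mcpt-ps1 on the opposite strand. The libraries were made with a stranded kit, but the strand setting of the counting is not given in the sources used here. Whether reads in the shared bases were told apart is therefore not known.

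How far the members can be told apart by their reads depends on their sequences. The lines that follow show the coding sequence around the catalytic serine, 99 bases from the GENCODE vM21 transcript of each gene, to make that likeness visible. In the Mcpt1 line the capitals mark the codon of the serine, and in the other lines they mark the bases that differ from Mcpt1.
Mcpt1: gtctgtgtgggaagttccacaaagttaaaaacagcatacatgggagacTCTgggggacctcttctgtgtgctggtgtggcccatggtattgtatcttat
Mcpt2: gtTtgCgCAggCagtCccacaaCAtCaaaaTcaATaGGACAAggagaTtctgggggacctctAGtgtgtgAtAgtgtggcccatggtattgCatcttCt
Mcpt4: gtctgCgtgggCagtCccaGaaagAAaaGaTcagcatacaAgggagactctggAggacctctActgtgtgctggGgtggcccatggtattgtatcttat
Mcpt9: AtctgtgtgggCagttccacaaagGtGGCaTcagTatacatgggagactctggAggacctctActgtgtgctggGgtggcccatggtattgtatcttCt
Cma1: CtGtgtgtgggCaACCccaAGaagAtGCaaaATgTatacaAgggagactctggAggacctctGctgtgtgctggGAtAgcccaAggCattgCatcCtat
Cma2: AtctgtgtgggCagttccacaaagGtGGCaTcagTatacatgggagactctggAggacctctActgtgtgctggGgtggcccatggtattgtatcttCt
Mcpt4, Mcpt9 and Cma2 each differed from Mcpt1 at 12 of the 99 bases, Mcpt2 at 25 and Cma1 at 24. Mcpt9 and Cma2 differed from each other at 0 bases. Over whole transcripts Mcpt9 and Cma2 were identical at 98.1% of 809 aligned bases, and Mcpt1 and Mcpt4 at 85.2% of 977. Cma1 stood farthest from the others, at 62.7% to 67.7%. Of all windows of 50 bases in the longest Cma2 transcript, 40.9% also occurred in Mcpt9 and 6.5% in Mcpt4. Of the Mcpt9 windows, 18.8% occurred in Cma2. Of the Mcpt4 windows, 5.5% occurred in Cma2 and 0.7% in Mcpt9. Mcpt1, Mcpt2 and Cma1 shared 0 such windows with any other member. A read that falls in a shared window cannot be assigned by sequence, and how the authors' counting treated such reads is not given in the sources used here. The values of Mcpt9 and Cma2, and to a smaller degree those of Mcpt4, are therefore uncertain to that extent.

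Promoters of 4 of the 6 genes could be read from RefSeq (GRCm38.p6), those of Mcpt1, Mcpt4, Mcpt9 and Cma1. The 250 bases upstream of Mcpt1 and Mcpt4 are shown because a mucosal and a connective tissue type gene share most of them. The Mcpt1 window is chr14:56017714-56017963 on the plus strand and the Mcpt4 window chr14:56062311-56062560 on the minus strand. Capitals mark GATAA and TATAAA.
Mcpt1: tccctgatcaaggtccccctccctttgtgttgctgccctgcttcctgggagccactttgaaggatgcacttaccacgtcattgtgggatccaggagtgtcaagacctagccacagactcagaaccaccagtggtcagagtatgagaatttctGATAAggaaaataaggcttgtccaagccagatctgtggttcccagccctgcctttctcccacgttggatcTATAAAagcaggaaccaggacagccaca
Mcpt4: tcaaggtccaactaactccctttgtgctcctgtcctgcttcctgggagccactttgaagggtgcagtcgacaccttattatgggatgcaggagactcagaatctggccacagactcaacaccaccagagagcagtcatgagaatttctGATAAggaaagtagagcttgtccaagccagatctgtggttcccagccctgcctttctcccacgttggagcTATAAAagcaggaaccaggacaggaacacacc
The 2 sequences were identical at 86.4% of 242 aligned bases, whereas the other pairs of promoters were identical at 56.1% to 64.2%. GATAA, a sequence that GATA factors bind, was searched on both strands and stood at −98 from the RefSeq start of Mcpt1, −102 of Mcpt4 and −194 of Cma1 (there on the opposite strand). It was not found in the Mcpt9 window. Of all 27025 mouse promoters of that length, 23% held it. TATAAA, searched on the strand of the gene, stood at −28 in Mcpt1 and −32 in Mcpt4, and 8.1% of all promoters held it. CAGAC, searched on both strands, occurred in Mcpt1 and Mcpt4 and in 42.1% of all promoters. CATGTG, searched on both strands, occurred in none of the 4 windows and in 12.2% of all.

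Depth and tissue markers set the frame for these values. Libraries held 5.48 to 19.34 M (mega) counted reads (median 13.81 M), of which the 6 genes took 75 to 8517. Values are given as reads, or as CPM, counts scaled to the size of the library with edgeR's TMM factors, and ± is the SD. The 6 enterocyte markers summed to 6240 to 63600 CPM in Cpa3Cre/+ and 16100 to 55900 CPM in Cpa3+/+ libraries. The library labelled Cpa3Cre/+ naive replicate 1 stood apart, with the lowest enterocyte sum and the highest smooth muscle sum (5720 CPM over 6 markers, against at most 2530 CPM in any Cpa3+/+ library). Its level of the targeted gene Cpa3, 1.07 CPM, fell between the lowest (0.827 CPM) and highest (1.84 CPM) naive Cpa3+/+ libraries. In the other 4 states every Cpa3Cre/+ library had less Cpa3 than every Cpa3+/+ library. The part of this library in the results was not tested. Several, but not all, of the results that rest on it are given with and without it.

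Mcpt1 and Mcpt2 made up nearly all reads of the family in either genotype. Over all libraries pooled, Mcpt1 held 68.5% of the 6129 family reads in Cpa3Cre/+ jejunum and 69.0% of the 28369 in Cpa3+/+ jejunum. Mcpt2 held 26.8% in Cpa3Cre/+ and 24.8% in Cpa3+/+. Mcpt4 held 2.06% and Mcpt9 1.42% in Cpa3Cre/+, against 2.18% and 3.04% in Cpa3+/+. Cma1 and Cma2 held 0.473% and 0.767% in Cpa3Cre/+, and 0.349% and 0.617% in Cpa3+/+. Cma1 was thus counted in 128 reads in the whole series and Cma2 in 222.

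Compared per length of merged exons, the order of levels was the same at its top in every group. Mcpt1 came first with 27.5 ± 21.7 CPM per kb in Cpa3Cre/+ (n = 11) and 116 ± 141 in Cpa3+/+ (n = 12), a spread that includes the 5 states. Mcpt2 came next with 10.3 ± 9.10 in Cpa3Cre/+ and 39.7 ± 48.2 in Cpa3+/+, and lay below Mcpt1 in 11 of 11 and 12 of 12 libraries. Mcpt4 followed with 0.794 ± 0.707 in Cpa3Cre/+ and 3.33 ± 4.17 in Cpa3+/+, and lay below Mcpt2 in every library. Mcpt9 averaged 0.311 ± 0.228 in Cpa3Cre/+ and 2.58 ± 3.22 in Cpa3+/+, Cma2 0.291 ± 0.391 and 0.961 ± 1.05, and Cma1 0.202 ± 0.222 and 0.553 ± 0.648. Over all states together the ranges of all neighbours in this order overlapped. Mcpt4 lay above Mcpt9 in 9 of 11 Cpa3Cre/+ and 8 of 12 Cpa3+/+ libraries, and Cma2 above Cma1 in 6 of 11 and 8 of 12. On day 3 in Cpa3+/+ jejunum the ranges of neighbours in the order Mcpt1, Mcpt2, Mcpt4, Mcpt9, Cma2 and Cma1 did not overlap (n = 2).

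The genotype comparison asked how far the protease transcripts differ in mice described as mast cell-deficient. Mcpt1 was present in every Cpa3Cre/+ library. It stood at 10.1 and 6.34 CPM in naive, 4.37 and 5.19 in immunized, 12.4 and 29.5 on day 1, 31.4 and 41.1 on day 3, and 44.6, 67.9 and 53.8 CPM on day 5 in Cpa3Cre/+ mice. In Cpa3+/+ mice it stood at 8.10, 12.8 and 28.0 CPM in naive, 26.5 and 53.7 in immunized, 35.0, 27.8 and 111 on day 1, 319 and 327 on day 3, and 59.6 and 397 CPM on day 5. The groups were apart in immunized mice and on day 3 and overlapped in the other states.

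Mcpt2, the other mucosal chymase, followed the same pattern at a lower level. In Cpa3Cre/+ mice it had 4.78 and 1.71 CPM in naive, 1.09 and 1.76 in immunized, 4.53 and 10.1 on day 1, 9.64 and 16.0 on day 3, and 19.9, 31.1 and 19.4 CPM on day 5. In Cpa3+/+ mice it had 3.97, 6.08 and 10.9 CPM in naive, 10.5 and 20.0 in immunized, 10.6, 7.18 and 36.7 on day 1, 126 and 114 on day 3, and 24.0 and 137 CPM on day 5. As for Mcpt1, Cpa3+/+ day 5 replicate 1 lay within the range of the Cpa3Cre/+ day 5 libraries.

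Mcpt4, the connective tissue type chymase, was low in every group. In Cpa3Cre/+ mice it had 0.488 and 0.302 CPM in naive, 0 and 0.153 in immunized, 0.558 and 0.735 on day 1, 0.763 and 0.747 on day 3, and 1.49, 1.91 and 2.54 CPM on day 5. In Cpa3+/+ mice it had 0.165, 0.0966 and 1.20 CPM in naive, 1.04 and 1.78 in immunized, 0.692, 0.932 and 2.74 on day 1, 11.1 and 10.2 on day 3, and 2.01 and 12.4 CPM on day 5. The groups were again apart in immunized mice and on day 3.

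Mcpt9 was low as well. In Cpa3Cre/+ mice it had 0.975 and 0.403 CPM in naive, 0 and 0.153 in immunized, 0.248 and 0.441 on day 1, 0.832 and 0.448 on day 3, and 0.670, 1.27 and 1.41 CPM on day 5. In Cpa3+/+ mice it had 0.827, 0.676 and 0.718 CPM in naive, 2.14 and 3.97 in immunized, 1.15, 0.186 and 2.29 on day 1, 13.3 and 14.6 on day 3, and 3.46 and 18.6 CPM on day 5. It was the 1 member whose groups were apart on day 5 as well, and in naive mice its Cpa3Cre/+ range enclosed its Cpa3+/+ range. The upper end of that range was the library labelled Cpa3Cre/+ naive replicate 1 (0.975 CPM). Naive replicate 2 (0.403 CPM) lay below every naive Cpa3+/+ library.

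Cma1, which in rodents cleaves with elastase-like rather than chymase-like preference and is stored with carboxypeptidase A3, was near the limit of detection. In Cpa3Cre/+ mice it had 8 and 1 reads in naive, 0 and 0 in immunized, 1 and 4 on day 1, 1 and 1 on day 3, and 6, 3 and 4 reads on day 5. In Cpa3+/+ mice it had 1, 1 and 1 reads in naive, 6 and 3 in immunized, 6, 1 and 8 on day 1, 37 and 16 on day 3, and 5 and 14 reads on day 5. The 8 naive reads came from the library labelled Cpa3Cre/+ naive replicate 1. Cma2 had 0 and 1 reads in naive, 0 and 1 in immunized, 1 and 5 on day 1, 5 and 5 on day 3, and 7, 19 and 3 reads on day 5 in Cpa3Cre/+ mice. In Cpa3+/+ mice it had 0, 2 and 5 reads in naive, 3 and 17 in immunized, 8, 1 and 6 on day 1, 38 and 38 on day 3, and 9 and 48 reads on day 5.

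**Figure D1:**
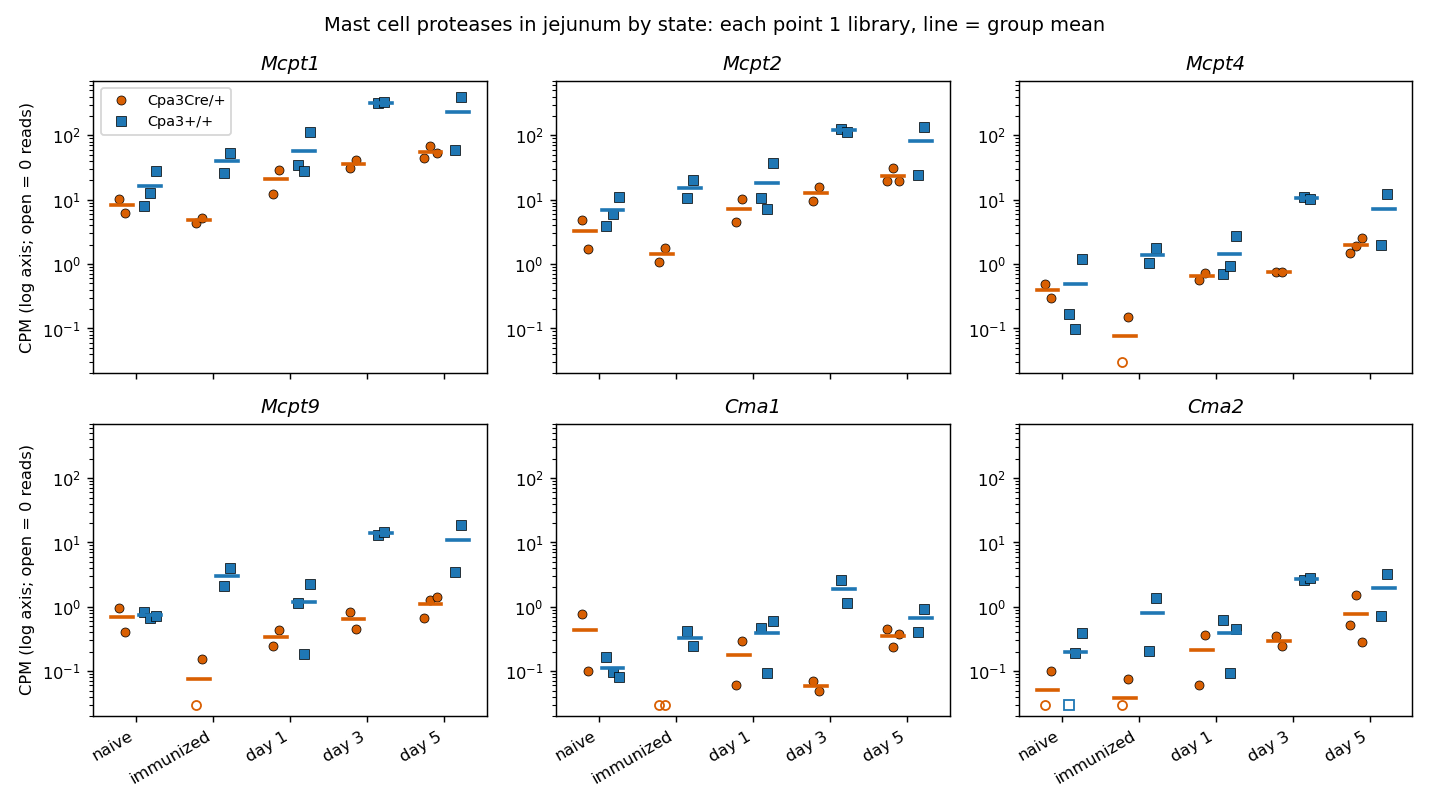
Levels of the 6 proteases in CPM (log axis) in each library, by state, with Cpa3Cre/+ libraries left (circles) and Cpa3+/+ libraries right (squares); lines are group means and open symbols at the foot are libraries with 0 reads. On day 3 the Cpa3+/+ libraries hold 319 and 327 CPM of Mcpt1, against 31.4 and 41.1 CPM in Cpa3Cre/+, and in every panel the genotypes are apart in immunized mice and on day 3.

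Counted over the family, the Cpa3Cre/+ libraries lay below every Cpa3+/+ library for 6 of 6 members in immunized mice, where the same held for 22.9% of all genes tested, and for 6 of 6 on day 3 (19.4% of all genes). On day 5 this held for Mcpt9 alone (14.6% of all genes), and in naive mice and on day 1 for 0 members (4.54% and 9.56% of all genes). The naive count rests on the library labelled Cpa3Cre/+ naive replicate 1. Without it, naive replicate 2 lay below every naive Cpa3+/+ library for Mcpt1 (6.34 against at least 8.10 CPM). The same held for Mcpt2 (1.71 against at least 3.97 CPM) and Mcpt9 (0.403 against at least 0.676 CPM), but not for Mcpt4, Cma1 and Cma2. The share of all genes for that library alone is not given here. The smallest groups hold 2 libraries, so these counts describe the libraries.

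Averaged over the 5 states, Mcpt1, Mcpt2 and Mcpt9 were lower in Cpa3Cre/+ jejunum by edgeR's quasi-likelihood test, 3 of 6 members, where 0.029% of all genes were called (5 of 17236, all lower). The log2 fold change was −2.31 for Mcpt1 (SE 0.35, 4.95-fold lower, adjusted p = 0.0283 by edgeR), −2.30 for Mcpt2 (SE 0.38, 4.91-fold lower, adjusted p = 0.0369 by edgeR) and −2.83 for Mcpt9 (SE 0.45, adjusted p = 0.0342 by edgeR). Mcpt4 had −2.42 (SE 0.46, adjusted p = 0.183 by edgeR), Cma1 −1.85 (SE 0.58, adjusted p = 1) and Cma2 −2.60 (SE 0.64, adjusted p = 1), and these did not pass. All 6 values were negative, with a median of −2.37 against 0.03 for all genes. The averages of Mcpt4, Mcpt9, Cma1 and Cma2 include the immunized Cpa3Cre/+ group, where they held 0 to 2 reads, so their size depends on the prior count of the fit. DESeq2 called 4 members (Mcpt4 in addition, adjusted p = 0.000631 by DESeq2), where it called 0.0464% of all genes.

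The edgeR calls depended on single libraries. The count of members called was 0 without any 1 of 14 libraries, and in these fits the direction stayed negative for all 6. These libraries were Cpa3+/+ naive replicates 1, 2 and 3, immunized replicate 2 and day 3 replicates 1 and 2, the library labelled Cpa3Cre/+ naive replicate 1, and Cpa3Cre/+ immunized replicates 1 and 2, day 1 replicate 1, day 3 replicates 1 and 2 and day 5 replicates 1 and 3. The count was 1 without Cpa3+/+ day 1 replicate 1 (Mcpt1) or Cpa3Cre/+ naive replicate 2 (Mcpt9), 2 without Cpa3Cre/+ day 1 replicate 2 (Mcpt1 and Mcpt9) and 4 without Cpa3+/+ day 5 replicate 1 (Mcpt4 in addition). Over all genes the 23 fits called 0 to 7. Over the 23 fits the log2 fold change ran from −2.55 to −1.96 for Mcpt1, from −2.68 to −1.99 for Mcpt2 and from −3.49 to −2.53 for Mcpt9. Without the library labelled Cpa3Cre/+ naive replicate 1 the values were −2.55, −2.68 and −3.0. The count was also 0 with female libraries only, where Mcpt1 had −2.17, Mcpt2 −2.16 and Mcpt9 −2.73. It was 0 without the 3 libraries high in B cell follicle markers, an alternative chosen after the data were seen, where the values were −2.61, −2.62 and −3.61. Those libraries were Cpa3Cre/+ immunized replicate 2 (91.7 CPM summed over 6 markers) and day 1 replicate 2 (49.7 CPM) and Cpa3+/+ immunized replicate 1 (101 CPM).

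In single states the distance between genotypes was widest in immunized mice and on day 3. On day 3 Mcpt1 averaged 36.3 ± 6.83 CPM in Cpa3Cre/+ and 323 ± 6.08 CPM in Cpa3+/+ (n = 2 each), a log2 fold change of −3.44 (SE 0.79). Mcpt2 had −3.46 (SE 0.83), Mcpt4 −4.08 (SE 0.93), Mcpt9 −4.23 (SE 0.89) and Cma2 −3.60 (SE 1.08). Without Cpa3Cre/+ day 3 replicate 1 Cma2 had −4.98, and without replicate 2 it had −2.92. Over the fits without 1 library the other 4 stayed between −4.64 and −3.26. Cma1 had 2 reads in Cpa3Cre/+ and 53 in Cpa3+/+, a ratio of 0.0308 (exact 95% interval 0.00364 to 0.117, counting error only). In immunized mice Mcpt1 averaged 4.78 ± 0.583 CPM in Cpa3Cre/+ and 40.1 ± 19.2 CPM in Cpa3+/+ (n = 2 each), −3.31 (SE 0.81), and Mcpt2 had −3.59 (SE 0.91). Without Cpa3Cre/+ immunized replicate 2 these were −4.00 and −4.46. The pooled reads of the lower 4 in immunized mice were 2 in Cpa3Cre/+ and 37 in Cpa3+/+ for Mcpt4 (ratio 0.054, interval 0.00631 to 0.209), and 2 and 80 for Mcpt9 (0.025, interval 0.00297 to 0.0932). They were 1 in Cpa3Cre/+ and 20 in Cpa3+/+ for Cma2 (0.05, interval 0.00121 to 0.312). Cma1 had 0 reads in Cpa3Cre/+ and 9 in Cpa3+/+, which makes it at least 3.0-fold lower against a floor of 3 reads over the group.

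On day 5 Mcpt9 had −3.31 (SE 0.70), while Mcpt1 had −2.04 (SE 0.63), Mcpt2 −1.78 (SE 0.65), Mcpt4 −1.87 (SE 0.70), Cma1 −0.92 (SE 0.75) and Cma2 −1.34 (SE 0.81). The day 5 differences rested on Cpa3+/+ day 5 replicate 2. Without it Mcpt1 had −0.13, Mcpt2 −0.06, Mcpt4 −0.06, Mcpt9 −1.67, Cma1 −0.21 and Cma2 0.08. On day 1 Mcpt1 had −1.83 (SE 0.74), Mcpt2 −1.59 (SE 0.78), Mcpt4 −1.46 (SE 0.90) and Mcpt9 −1.57 (SE 0.95). Without Cpa3+/+ day 1 replicate 3 Mcpt1 had −0.94, Mcpt2 −0.55 and Mcpt4 −0.60, and without Cpa3Cre/+ day 1 replicate 1 Mcpt9 had −0.70. In naive mice Mcpt1 had −0.92 (SE 0.70), Mcpt2 −1.07 (SE 0.78), Mcpt4 −0.38 (SE 1.05) and Mcpt9 −0.07 (SE 0.89). Without the library labelled Cpa3Cre/+ naive replicate 1 these were −1.78 for Mcpt1, −2.46 for Mcpt2 and −0.66 for Mcpt9, and without Cpa3Cre/+ naive replicate 2 Mcpt2 had −0.34. The naive value of Mcpt4 was 1.65 without Cpa3+/+ naive replicate 3.

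Within single states edgeR called 0 members (adjusted p of 0.365 to 1) and 0 genes in all (0.0%). Genes with an unadjusted p below 0.05 numbered 921 in naive mice, 164 in immunized mice, 1274 on day 1, 267 on day 3 and 1596 on day 5. DESeq2 called Mcpt1, Mcpt2, Mcpt4 and Mcpt9 on day 3, with adjusted p of 0.0163, 0.0302, 0.0164 and 0.00591 by DESeq2, where it called 0.0406% of all genes. It called Mcpt9 on day 5 (adjusted p = 0.00879 by DESeq2; 0.087% of all genes) and 0 members in naive and immunized mice and on day 1.

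**Figure D2:**
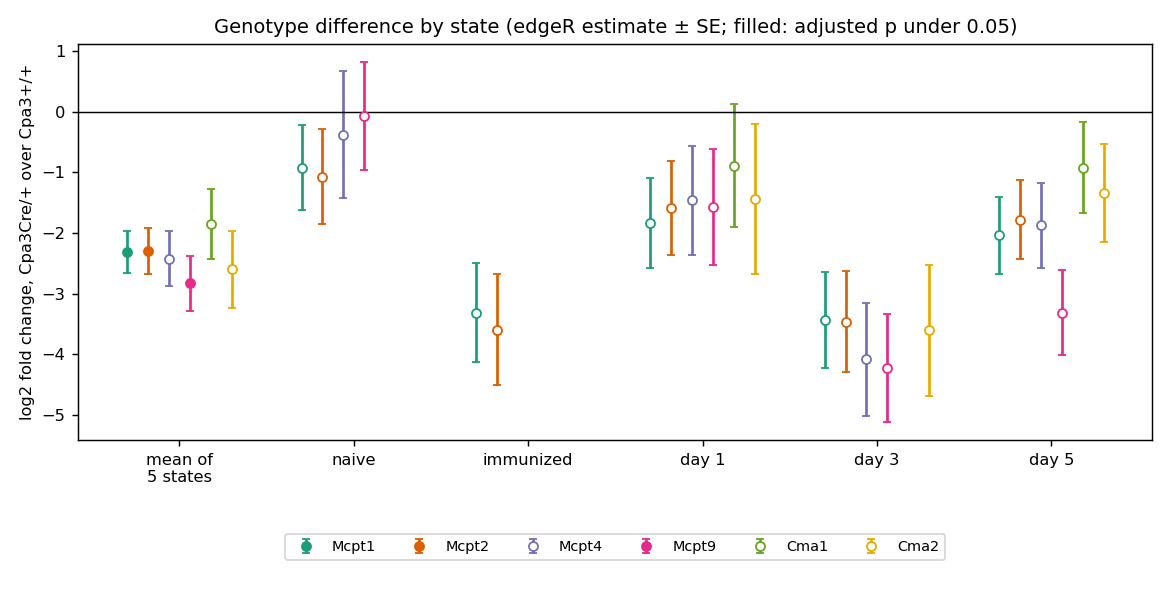
Log2 fold change of Cpa3Cre/+ over Cpa3+/+ with its SE from edgeR, for the mean of the 5 states and for each state; filled points have an adjusted p under 0.05, and genes with 3 or fewer reads in a group are left out of that state. Filled points are Mcpt1, Mcpt2 and Mcpt9 in the mean of the states, and the day 3 values lie between −4.23 and −3.44.

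The time course asked how the transcripts move from the naive state through immunization and challenge. Mcpt1 in Cpa3Cre/+ jejunum averaged 8.24 ± 2.69 CPM in naive mice, 4.78 ± 0.583 CPM once immunized, 20.9 ± 12.1 CPM on day 1 and 36.3 ± 6.83 CPM on day 3 (n = 2 each), and 55.4 ± 11.7 CPM on day 5 (n = 3). Its Cpa3+/+ averages were 16.3 ± 10.4 CPM in naive mice and 57.9 ± 46.1 CPM on day 1 (n = 3 each), and 40.1 ± 19.2 CPM once immunized, 323 ± 6.08 CPM on day 3 and 228 ± 239 CPM on day 5 (n = 2 each). The Cpa3Cre/+ mean was highest on day 5 and the Cpa3+/+ mean on day 3. The 2 Cpa3+/+ day 5 libraries stood at 59.6 and 397 CPM, on either side of the day 3 libraries, so the order of these 2 states is not resolved in Cpa3+/+.

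In Cpa3Cre/+ jejunum every day 5 library lay above every naive library for Mcpt1, Mcpt2, Mcpt4 and Cma2, 4 of 6 members (7.25% of all genes), and above every immunized library for 6 of 6 (14.0% of all genes). The log2 fold change of day 5 over naive was 2.95 for Mcpt1 (SE 0.76), 2.98 for Mcpt2 (SE 0.81), 2.54 for Mcpt4 (SE 0.99) and 0.47 for Mcpt9 (SE 0.89). These did not pass in edgeR (adjusted p of 0.0903 to 0.832; 0 genes called, 0.0%, and 2810 with an unadjusted p below 0.05). DESeq2 called Mcpt1 (adjusted p = 0.00965) and Mcpt2 (adjusted p = 0.0135), where it called 2.23% of all genes. Without the library labelled Cpa3Cre/+ naive replicate 1 the values were 3.92 for Mcpt1, 4.52 for Mcpt2, 3.44 for Mcpt4 and 1.13 for Mcpt9, each with an adjusted p of 1 by edgeR. Without Cpa3Cre/+ naive replicate 2 edgeR called 3006 genes of 18182 and 0 members, and Mcpt2 had 2.36. The Mcpt9 ranges overlapped, at 0.670 to 1.41 CPM on day 5 and 0.403 to 0.975 CPM in naive mice. This overlap rests on the library labelled naive replicate 1 (0.975 CPM). Set against naive replicate 2 alone (0.403 CPM), every day 5 library also lay above for Mcpt9. The same held for Cma1, at 0.238 to 0.447 CPM on day 5 against 0.101 CPM (1 read) in naive replicate 2. The share of all genes for that replicate alone is not given here. Day 3 lay above immunized for 6 of 6 members as well (25.9% of all genes), and above naive for the same 4 as day 5 (8.9% of all genes). Set against naive replicate 2 alone, day 3 also lay above for Mcpt9 (0.832 and 0.448 CPM) but not for Cma1 (0.0694 and 0.0498 CPM). The log2 fold change of day 5 over immunized was 3.77 for Mcpt1 (SE 0.80) and 4.22 for Mcpt2 (SE 0.89), each with an adjusted p of 0.109 by edgeR, which called 0.0348% of all genes (6, all lower) and 0 members. At an unadjusted p below 0.05 edgeR had 1679 genes. DESeq2 called Mcpt1, Mcpt2 and Mcpt4 in that contrast, where it called 1.03% of all genes. Without Cpa3Cre/+ day 5 replicate 3, edgeR called Mcpt1 and Mcpt2 among 327 genes of 17097 (276 lower and 51 higher). Without Cpa3+/+ day 5 replicate 1 or 2 it called Mcpt1 among 8 genes (6 lower and 2 higher). Without Cpa3Cre/+ immunized replicate 2 the values were 4.42 for Mcpt1 and 5.03 for Mcpt2.

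In Cpa3+/+ jejunum every day 3 library lay above every naive library for 6 of 6 members (19.4% of all genes), and every day 5 library did so for 6 of 6 (17.2% of all genes). The log2 fold change of day 3 over naive was 4.57 for Mcpt1 (SE 0.72), 4.26 for Mcpt2 (SE 0.74), 4.59 for Mcpt4 (SE 0.88) and 4.04 for Mcpt9 (SE 0.78). These did not pass in edgeR (adjusted p of 0.11 to 0.268; 0 genes called, 0.0%, and 1214 with an unadjusted p below 0.05), whereas DESeq2 called all 4, where it called 0.0696% of all genes. Without Cpa3+/+ day 1 replicate 3, day 5 replicate 1 or day 5 replicate 2, edgeR called Mcpt1 and Mcpt2, the 2 genes called in each of these fits. With the replicate number as a block it called Mcpt1, Mcpt2 and Mcpt4, the 3 genes called in all. Mcpt4 had 3.94 without Cpa3+/+ naive replicate 2 and 6.30 without naive replicate 3. Cma1 had 53 reads in 2 day 3 libraries against 3 reads in 3 naive ones, and Cma2 had 76 against 7. The log2 fold change of day 3 over immunized mice was 3.01 for Mcpt1 (SE 0.75), 2.97 for Mcpt2 (SE 0.78), 2.92 for Mcpt4 (SE 0.83) and 2.19 for Mcpt9 (SE 0.74), each with an adjusted p of 0.85 by edgeR. Every immunized library lay above every naive library for 2 of 6 members, Mcpt9 and Cma1 (8.19% of all genes). For Cma1 this rests on 6 and 3 reads in immunized against 1, 1 and 1 reads in naive mice. In this contrast edgeR called 0 genes. The log2 fold change of day 1 over immunized mice was −1.30 for Mcpt9 (SE 0.70, adjusted p = 0.847 by edgeR) and 0.53 for Mcpt1 (SE 0.65, adjusted p = 0.889 by edgeR).

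The other contrasts of time gave fewer calls. In Cpa3+/+ the log2 fold change of day 5 over naive was 4.07 for Mcpt1 (SE 0.71, adjusted p = 0.106 by edgeR) and 3.69 for Mcpt2 (SE 0.73, adjusted p = 0.115 by edgeR), and DESeq2 called both, where it called 0.824% of all genes. Without Cpa3+/+ day 5 replicate 2 the values were 2.12 for Mcpt1 and 1.94 for Mcpt2, and without day 5 replicate 1 they were 4.84 and 4.43. Without Cpa3+/+ day 5 replicate 1 edgeR called Mcpt1, the 1 gene called, and without Cpa3Cre/+ naive replicate 2 it called Mcpt1 among 15 genes (11 lower and 4 higher). With the replicate number as a block it called Mcpt1 among 3 genes, all higher. DESeq2 left Mcpt4 and Mcpt9 without an adjusted p there. Over immunized mice, day 5 had 2.51 for Mcpt1 (SE 0.74), which DESeq2 called (adjusted p = 0.04; 0.806% of all genes). DESeq2 called 0 members in immunized against naive Cpa3+/+ mice (0.0232% of all genes), on day 1 against naive (0.0174%) or immunized (0.0522%), and on day 3 against immunized (0.0116%). In Cpa3Cre/+ it called 0 members on day 3 against naive (0.0058%), on day 1 against naive (0.145%) and in immunized against naive mice (0.453%).

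Over the 5 states jointly, edgeR called 0 members in Cpa3Cre/+ (adjusted p of 0.247 to 0.554) and 0 in Cpa3+/+ (0.1 to 0.298). It called 0 of 17236 genes in either (0.0%), while 1899 had an unadjusted p below 0.05 in Cpa3Cre/+ and 1800 did in Cpa3+/+. The joint test of DESeq2 called 3 members in Cpa3Cre/+, namely Mcpt1, Mcpt2 and Mcpt4, where 2.48% of all genes were called. In Cpa3+/+ it called 5 (all but Cma1), where 2.11% of all genes were called. Leaving out 1 library gave edgeR calls in Cpa3+/+ in 3 of 23 fits. They were Mcpt1 and Mcpt2 without Cpa3+/+ day 1 replicate 3, Mcpt1, Mcpt2, Mcpt4 and Mcpt9 without Cpa3+/+ day 5 replicate 1, and Mcpt1 without Cpa3+/+ day 5 replicate 2. These fits called 5, 6 and 6 genes in all. Whether the response to challenge differed by genotype was tested over the 3 days jointly. It was called for 0 members by edgeR (adjusted p of 0.797 to 0.798; 0.0% of all genes, and 797 with an unadjusted p below 0.05) and by DESeq2 (5 genes called, 0.029%).

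To ask whether the mix of mucosal and connective tissue type proteases differed, each member was set against Mcpt1 within its library, so that the depth drops out. Mcpt2 stood at 36.3 ± 7.35 reads per 100 Mcpt1 reads in Cpa3Cre/+ (range 25.0 to 47.1, median 36.0, n = 11) and at 37.5 ± 6.54 in Cpa3+/+ (range 25.8 to 49.0, median 38.0, n = 12). Mcpt4 stood at 3.15 ± 1.5 in Cpa3Cre/+ (0 to 4.81, median 2.94) and at 2.93 ± 0.968 in Cpa3+/+ (0.752 to 4.27, median 3.22). For neither did the genotypes differ beyond the spread of the libraries. The mean log2 difference over the states was −0.07 for Mcpt2 (exact permutation within states, two-sided p = 0.504, 0.841 adjusted over the 5 ratios), and 0.00 for Mcpt4 (exact p = 0.997, adjusted 0.997).

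Mcpt9 was the member whose share differed most between genotypes. It stood at 2.92 ± 2.73 reads per 100 Mcpt1 reads in Cpa3Cre/+ (range 0 to 9.62, median 2.00, n = 11) and at 4.89 ± 2.70 in Cpa3+/+ (range 0.671 to 10.2, median 4.57, n = 12). In challenged mice it stood at 1.89 ± 0.587 in Cpa3Cre/+ (1.09 to 2.65, n = 7) and at 3.59 ± 1.74 in Cpa3+/+ (0.671 to 5.81, n = 7), with overlap through the day 1 libraries. On day 3 and day 5 together the groups were apart, at 1.09 to 2.65 in Cpa3Cre/+ and 4.18 to 5.81 in Cpa3+/+. This joining of days describes the libraries and was not tested. The share of all genes whose ratio to Mcpt1 is apart in this way is not given here. In naive mice the values were 9.62 and 6.35 in Cpa3Cre/+ and 10.2, 5.26 and 2.56 in Cpa3+/+. The 9.62 came from the library labelled Cpa3Cre/+ naive replicate 1. The mean log2 difference over the states was −0.83 (1.78-fold lower, exact permutation p = 0.0493), which did not pass after adjustment over the 5 ratios (0.246), and it ran from −1.04 to −0.61 when single libraries were left out. Cma1 had 0.31 (exact p = 0.482, adjusted 0.841) and Cma2 0.02 (exact p = 0.943, adjusted 0.997), on 29 and 47 reads in Cpa3Cre/+. For Cma1 the library labelled Cpa3Cre/+ naive replicate 1 had 7.69 reads per 100 Mcpt1 reads, against 1.59 in naive replicate 2. The Cma1 difference ran from 0.13 to 0.48 when single libraries were left out.

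**Figure D3:**
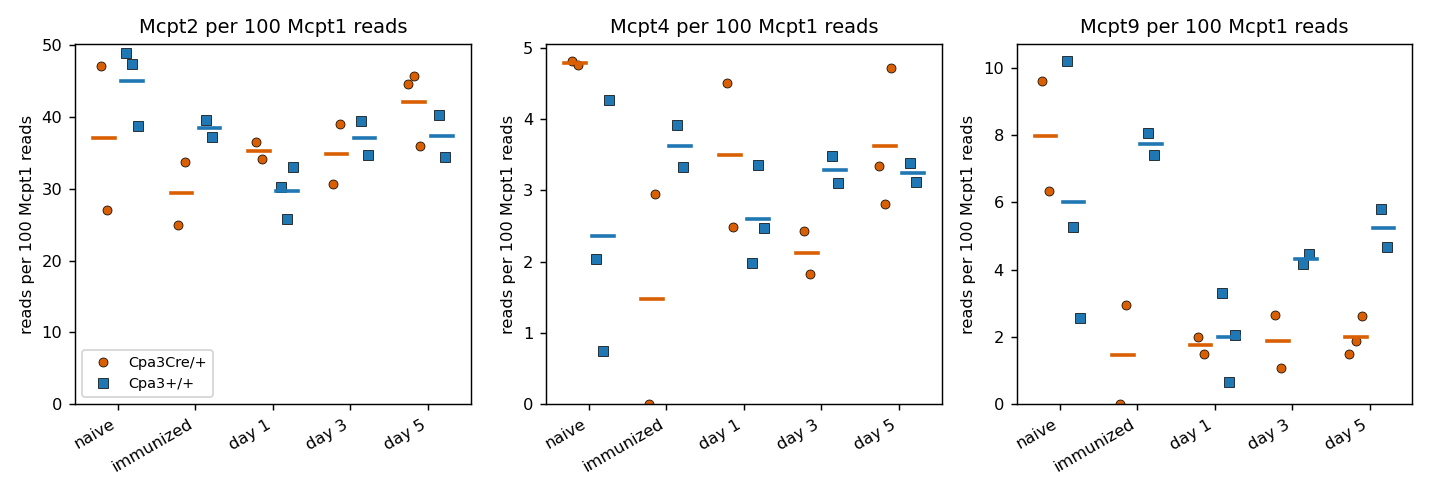
Reads of Mcpt2, Mcpt4 and Mcpt9 per 100 reads of Mcpt1 in each library, by state, with Cpa3Cre/+ left (circles) and Cpa3+/+ right (squares); lines are group means. Mcpt2 keeps to 25.0 to 49.0 in all libraries, and Mcpt9 on day 3 and day 5 lies at 1.09 to 2.65 in Cpa3Cre/+ and at 4.18 to 5.81 in Cpa3+/+. On day 1 the genotypes overlap for Mcpt9. Its difference over all states did not pass after adjustment (exact permutation, adjusted p = 0.246).

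Within each genotype the levels of the members were correlated across libraries. In Cpa3Cre/+ 12 of 15 pairs had a permutation p under 0.05 after adjustment over 30 pairs (n = 11, Pearson r of log2 CPM 0.31 to 0.99), and in Cpa3+/+ all 15 did (n = 12, r 0.74 to 0.99). The share of all gene pairs that pass is not given here. Whether the members exceed other genes in this was not tested. Mcpt1 and Mcpt2 were closest, with r = 0.99 and Spearman's rho 0.96 in Cpa3Cre/+ and r = 0.99 and rho 0.98 in Cpa3+/+ (permutation p = 1e-05 for each r, the smallest that 100000 permutations can give, and 5e-05 adjusted). Mcpt1 and Mcpt4, a mucosal and a connective tissue type gene, had r = 0.89 and rho 0.98 in Cpa3Cre/+ and r = 0.97 and rho 0.94 in Cpa3+/+ (adjusted permutation p = 5e-05 for each r). Without the 2 libraries farthest from the median of Mcpt1 the r of this pair was 0.90 in Cpa3Cre/+ and 0.95 in Cpa3+/+.

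Mcpt1 and Mcpt9 had r = 0.75 in Cpa3Cre/+ (rho 0.81, adjusted permutation p = 0.0043) and 0.87 in Cpa3+/+ (rho 0.86, adjusted permutation p = 0.001). Without the 2 farthest libraries these were 0.54 in Cpa3Cre/+ and 0.76 in Cpa3+/+. The pairs that did not pass in Cpa3Cre/+ all involved Cma1, which had the fewest reads. Cma1 and Cma2 had r = 0.31 in Cpa3Cre/+ (rho 0.37, adjusted permutation p = 0.36) and 0.74 in Cpa3+/+ (rho 0.75, adjusted permutation p = 0.0078). Mcpt2 and Cma1 had r = 0.60 in Cpa3Cre/+ (rho 0.56, adjusted permutation p = 0.056) and 0.87 in Cpa3+/+ (rho 0.76, adjusted permutation p = 0.0007). Mcpt1 and Cma1 had r = 0.54 in Cpa3Cre/+ (rho 0.50, adjusted permutation p = 0.09) and 0.85 in Cpa3+/+ (rho 0.77, adjusted permutation p = 0.0011). Without the library labelled Cpa3Cre/+ naive replicate 1 the Cpa3Cre/+ value was 0.77 (adjusted permutation p = 0.013). Mcpt9 and Cma2, whose reads can be confused, had r = 0.61 in Cpa3Cre/+ (rho 0.53, adjusted permutation p = 0.049) and 0.85 in Cpa3+/+ (rho 0.92, adjusted permutation p = 0.0011). In Cpa3Cre/+ their r no longer passed without any 1 of 10 libraries (0.42 to 0.62), all but the one labelled naive replicate 1, without which it was 0.87.

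The pooled values mix the 5 states. After each state's mean was subtracted, Mcpt1 and Mcpt2 kept r = 0.91 in Cpa3Cre/+ and 0.99 in Cpa3+/+, and Mcpt1 and Mcpt4 had 0.40 in Cpa3Cre/+ and 0.89 in Cpa3+/+. Permuted within states, which allowed 96 arrangements in Cpa3Cre/+ and 288 in Cpa3+/+, 0 of the 30 pairs passed after adjustment (smallest adjusted p = 0.17). With so few arrangements, the smallest possible p is too large for a single pair to pass alone after adjustment over 30 pairs. The lack of calls therefore cannot decide whether the members covary within states. The pair of Mcpt1 and Mcpt2 had an unadjusted exact p of 0.021 in Cpa3Cre/+ and 0.0069 in Cpa3+/+.

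**Figure D4:**
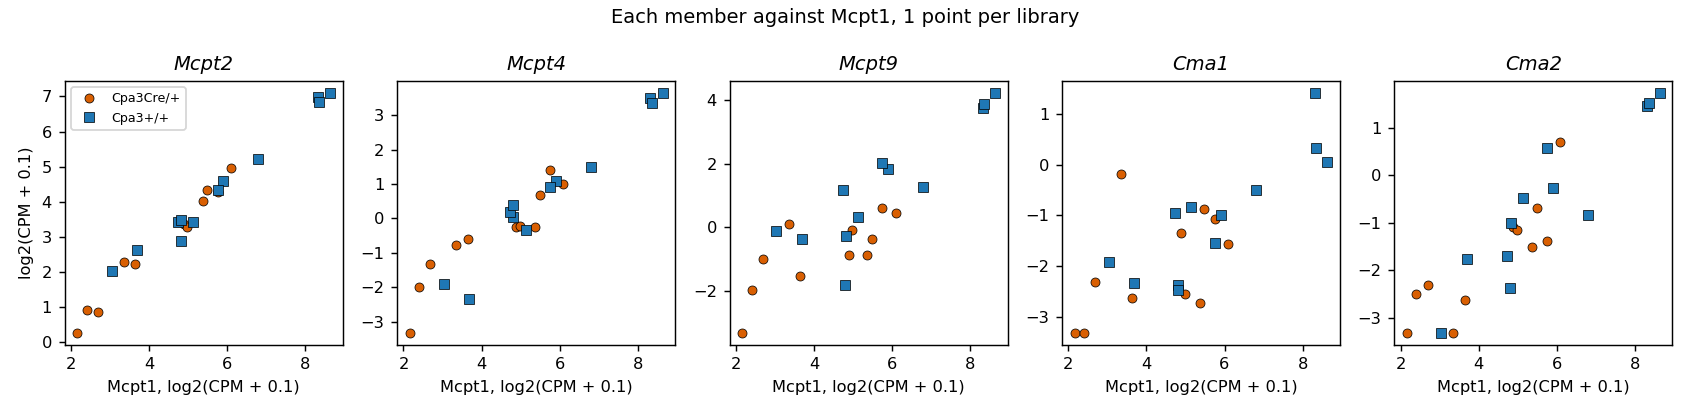
Log2(CPM + 0.1) of Mcpt2, Mcpt4, Mcpt9, Cma1 and Cma2 against that of Mcpt1, with 1 point per library (Cpa3Cre/+ circles, Cpa3+/+ squares). Mcpt2 follows Mcpt1 with r = 0.99 in either genotype, and the 3 Cpa3+/+ libraries at the upper right are the day 3 pair and day 5 replicate 2.

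Among the other genes ranked, those most like Mcpt1 over the 23 libraries were Fcer1a (Pearson r of log2 CPM 0.919, and 0.832 in Cpa3Cre/+ and 0.98 in Cpa3+/+ alone), Ms4a2 (0.88), Cpa3 (0.864) and Cyp11a1 (0.832). The ranking did not necessarily cover every gene tested. Fcer1a and Ms4a2 encode the alpha and beta chains of the high-affinity IgE receptor, Cpa3 the granule carboxypeptidase, and Cyp11a1 the enzyme that starts steroid synthesis. Mcpt-ps1 (0.785), Gp1ba (0.774), H19 (0.774) and Ccdc163 (0.773) followed. In Cpa3Cre/+ alone these had 0.594, 0.366, 0.472 and 0.738, and in Cpa3+/+ alone 0.792, 0.88, 0.934 and 0.848. Mcpt-ps1 is the pseudogene that shares exon bases with Cma2. The list for Mcpt4 began with the same 4 genes in the same order, Fcer1a at 0.908, Ms4a2 at 0.889, Cpa3 at 0.818 and Cyp11a1 at 0.802, and went on with H19 (0.779), Gp1ba (0.756), Ccdc163 (0.696) and Ruvbl1 (0.678). With Mcpt4, H19, Gp1ba, Ccdc163 and Ruvbl1 had 0.512, 0.271, 0.541 and 0.698 in Cpa3Cre/+ alone. In Cpa3+/+ alone they had 0.913, 0.899, 0.816 and 0.722. The pooled values describe 23 libraries that share genotypes and states.

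On the high-coordinate side of the family chromosome 14 holds related proteases of other cells. Of 9 such genes (Mcpt8, Ctsg and granzymes), Gzmb, a granzyme of cytotoxic lymphocytes, was the 1 that passed the count filter, and it had a log2 fold change of 0.02 averaged over the states (SE 0.42, adjusted p = 1 by edgeR). It stood at 0.975 to 47.7 CPM in Cpa3Cre/+ (median 21.2) and at 3.14 to 41.0 CPM in Cpa3+/+ (median 18.3). Mcpt8, a protease of basophils, had 25 reads in all libraries and Ctsg (cathepsin G) had 5. Genes on the low-coordinate side were not in this list. The 3 basophil markers together summed to 0 to 0.397 CPM in Cpa3Cre/+ and 0 to 0.559 CPM in Cpa3+/+, and 0 of 3 passed the filter.

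The other mast cell genes tell how far the family's pattern was shared. Of 4 other granule proteases 3 were tested and 1 was lower, Cpa3, which fell by 3.05 (SE 0.40, adjusted p = 0.0102 by edgeR). Cpa3 is the targeted gene, with Cre on 1 allele, and the part of that allele in its fall was not tested. The tryptase Tpsb2 had −1.94 (SE 0.63, adjusted p = 1) at 0 to 1.07 CPM in Cpa3Cre/+ and 0 to 5.07 CPM in Cpa3+/+. The third tested, Tpsg1, a membrane-anchored tryptase, had 0.07 (SE 0.21, adjusted p = 1 by edgeR) at 7.72 ± 2.23 CPM in Cpa3Cre/+ (n = 11) and 7.34 ± 2.5 CPM in Cpa3+/+ (n = 12). The tryptase Tpsab1 did not pass the filter. Of 10 identity genes 8 were tested and 1 was lower, Fcer1a, which fell by 2.89 (SE 0.45, adjusted p = 0.0283 by edgeR). Ms4a2 had −2.5 (SE 0.50, adjusted p = 0.258), Il1rl1, the IL-33 receptor chain, −0.40 (SE 0.27, adjusted p = 1) and Mitf, a transcription factor of mast cells and melanocytes, 0.34 (SE 0.23, adjusted p = 1). The median of the 8 was −0.38, and 6 of them were negative. The receptor genes Mrgprb1 and Mrgprb2, markers of the connective tissue type, together had 3 reads in the 11 Cpa3Cre/+ and 11 reads in the 12 Cpa3+/+ libraries. Of 8 genes of granule storage and activation 0 passed in either direction, with a median of −0.01 against 0.03 for all genes. They include Tph1, an enzyme of serotonin synthesis, at −0.67 (SE 0.23, adjusted p = 1).

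In the genotype average, genes of mucosal mast cell signals and of tight junctions gave 0 calls (0.029% of all genes were called). Mcpt1 is known to act on tight junctions as a protease, and these RNA values do not measure that action. Of 18 signals and receptors 12 were tested, with a median of 0.03; Itgb6, a chain of the integrin that activates TGF-beta, had −0.13 (SE 0.13) and Tgfb1 0.20 (SE 0.21). Of 9 tight junction genes all were tested, with a median of −0.06. Tjp1, the scaffold ZO-1, had −0.26 (SE 0.16) and Ocln, occludin, −0.14 (SE 0.15). Markers of other cell types gave 0 calls as well. The medians were 0.10 for 6 cytotoxic lymphocyte genes, 0.53 for 6 smooth muscle genes and 0.16 for 6 B cell follicle genes. The summed smooth muscle markers ran from 593 to 5720 CPM in Cpa3Cre/+ and 732 to 2530 CPM in Cpa3+/+ libraries. In immunized mice they were lower in Cpa3Cre/+ (593 and 971 CPM) than in Cpa3+/+ (1170 and 1440 CPM), and on day 3 higher (3670 and 2160 CPM, against 1550 and 1870 CPM). The members were below Cpa3+/+ in either state, and the part of tissue make-up in that was not tested.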

How the data were processed

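The processed data were raw read counts per Ensembl gene for 23 libraries of whole jejunum, deposited by the authors as 1 table and used as deposited. Total RNA was isolated with the PureLink kit and made into libraries with an Illumina stranded kit (per the labels' protocols). The submitters' processing notes name STAR, featureCounts of Subread 1.5.1 and the builds mm10 and GRCm38. The strand setting, the treatment of reads with several matches and the annotation release are not given in the sources used here.

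Symbols and positions came from GENCODE vM21 by identifier (55141 of 55487 genes matched). Groups came from the labels' genotype, treatment and time. Genes were filtered with edgeR's filterByExpr by group (17236 left) and scaled with TMM. Differences were tested with edgeR 4.0.16 in R 4.3.3, a robust quasi-likelihood F test with 10 groups and sex in 1 model (12 residual degrees of freedom, biological coefficient of variation 28.6%). P-values are two-sided and adjusted by Benjamini-Hochberg over the 17236 genes, and the threshold was 0.05. The spread is that between libraries, which may be technical. An SE was taken as the absolute log2 fold change divided by the root of F and is approximate. DESeq2 1.42.0 was an alternative. Ratios to Mcpt1 used log2 of reads plus 0.5 and an exact permutation of genotype within states (36000 arrangements, smallest possible p 6e-05), over libraries with at least 10 reads of the 2 genes. Correlations used log2 CPM (prior count 0.5), 100000 permutations and members with a read in at least 75% of a genotype's libraries. Intervals of ratios of reads are exact binomial ones at 95% and cover counting error only. The tests were tried on simulated data.

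The members, the 10 gene lists and the tests were chosen with earlier results of these data known. Named are the 6 members, Cpa3, at most 4 genes per list with the smallest genotype p, and the 8 genes most like Mcpt1 and like Mcpt4. Mrgprb1, Mrgprb2, Mcpt8 and Ctsg were named for their low counts. Other settings, libraries left out 1 at a time, female libraries only and the replicate number as a block were tried.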

Additional observations from a re-analysis of the deposited data

Results flagged for a closer look

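Several members moved in opposite directions in the 2 genotypes, in that every library of the later state lay on one side of the earlier mean in Cpa3Cre/+ and on the other side in Cpa3+/+. This is a description of the libraries. The members named here were picked by this rule, and the share of all genes that meet it is not given here. The unadjusted p-values below therefore follow a choice made on the same values. Where the interaction was tested, its p is given, and 0 passed in edgeR after adjustment over all genes (adjusted p of 0.845 to 0.997).

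From naive to immunized mice, the mean of Mcpt1 changed by −3.46 CPM in Cpa3Cre/+ and by 23.8 CPM in Cpa3+/+, a difference of −27.2 CPM (edgeR unadjusted p = 0.0353). The mean of the naive Cpa3Cre/+ group includes the library labelled replicate 1, and without it the naive level is that of replicate 2, 6.34 CPM, against 4.37 and 5.19 CPM in the immunized Cpa3Cre/+ libraries. For Mcpt2 the changes were −1.82 CPM in Cpa3Cre/+ and 8.29 CPM in Cpa3+/+, a difference of −10.1 CPM (edgeR unadjusted p = 0.0482). The opposite movement of Mcpt2 rests on the library labelled Cpa3Cre/+ naive replicate 1 (4.78 CPM): naive replicate 2 had 1.71 CPM, and the immunized Cpa3Cre/+ libraries, at 1.09 and 1.76 CPM, lie on both sides of it. For Mcpt4 they were −0.318 CPM in Cpa3Cre/+ and 0.923 CPM in Cpa3+/+, a difference of −1.24 CPM (edgeR unadjusted p = 0.0371). For Mcpt9 they were −0.613 CPM in Cpa3Cre/+ and 2.32 CPM in Cpa3+/+, a difference of −2.93 CPM (edgeR unadjusted p = 0.00531). Set against naive replicate 2 alone (0.302 CPM of Mcpt4 and 0.403 CPM of Mcpt9), the immunized Cpa3Cre/+ libraries, at 0 and 0.153 CPM of either gene, still lay below. For Cma1 they were −0.440 CPM in Cpa3Cre/+ and 0.215 CPM in Cpa3+/+, a difference of −0.655 CPM (edgeR unadjusted p = 0.00355), and 8 of the 9 naive Cpa3Cre/+ reads came from the library labelled replicate 1. Naive replicate 2 had 1 read of Cma1 and the immunized Cpa3Cre/+ libraries had 0. This contrast was added after the data were seen. Each group holds 2 or 3 libraries.

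From immunized mice to day 1, Mcpt9 changed by 0.268 CPM in Cpa3Cre/+ and by −1.85 CPM in Cpa3+/+, a difference of 2.12 CPM (edgeR unadjusted p = 0.043). The Cpa3Cre/+ change of Mcpt9 starts from 0 and 2 reads in the immunized libraries. Cma2 changed by 0.177 CPM in Cpa3Cre/+ and by −0.404 CPM in Cpa3+/+, a difference of 0.581 CPM (edgeR unadjusted p = 0.138). The Cpa3Cre/+ change of Cma2 starts from 0 and 1 reads. Its Cpa3+/+ fall rests on immunized replicate 2 (17 reads, 1.38 CPM). Immunized replicate 1 (3 reads, 0.207 CPM) lay below day 1 replicates 1 and 3 (0.615 and 0.457 CPM) and above day 1 replicate 2 (0.0932 CPM). From naive mice to day 3, Cma1 changed by −0.381 CPM in Cpa3Cre/+ and by 1.75 CPM in Cpa3+/+, a difference of −2.13 CPM, which was not tested. Without the library labelled Cpa3Cre/+ naive replicate 1, this rests on 1 read in naive replicate 2 and 1 read in each of the Cpa3Cre/+ day 3 libraries.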

How the results depend on the processing

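Scaling with DESeq2 size factors and leaving out the sex covariate kept the direction and the side of the threshold of every result tried with them. The count of members called in the genotype average was 3 in the edgeR fit described. It was 5 with no filter on low counts, 0 with female libraries only and 0 without the libraries high in follicle markers, and with 1 library left out it ran from 0 to 4. With no filter, members called numbered 5 in immunized mice, 2 on day 1, 6 on day 3 and 4 on day 5 between genotypes, 3 for the joint interaction, and 5 in Cpa3Cre/+ and 6 in Cpa3+/+ over the states, each against 0. Over all genes that setting called 49 in the genotype average against 5, 77, 233, 49 and 466 in immunized mice and on days 1, 3 and 5, 728 for the joint interaction, and 1498 in Cpa3Cre/+ and 1375 in Cpa3+/+ over the states, the last 7 against 0. DESeq2 called 428 genes over the states in Cpa3Cre/+ and 364 in Cpa3+/+, and 385 on day 5 against naive in Cpa3Cre/+, each against 0. DESeq2 called 4 members on day 3, 1 on day 5, and 3 in Cpa3Cre/+ and 5 in Cpa3+/+ over the states, each against 0. Over the states in Cpa3+/+ the count ran from 0 to 4 with 1 library left out. The causes were not tested.

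The replicate numbers did not pair the libraries. Same-numbered libraries of different groups had a median correlation of −0.00566, 17 of 93 pairs were over 0.1, and 10 of 23 libraries correlated best with their own number. With the replicate number as a block, 0 members were called in the genotype average, where 0 genes were called in all. Over the states in Cpa3+/+ the block fit called 1 member among 2 genes. In Cpa3+/+ the block fit also called 3 members on day 3 against naive (Mcpt1, Mcpt2 and Mcpt4, adjusted p of 0.0126, 0.0335 and 0.0335 by edgeR) and 1 on day 5 against naive (Mcpt1, 0.0429), each against 0 without the block. Over all genes it called 3 in either contrast.

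Some values changed sign, and the cause was not tested. In naive mice Mcpt4 had 1.81 with female libraries only, 0.55 with the block and 1.65 and 0.19 without Cpa3+/+ naive replicate 3 or Cpa3Cre/+ naive replicate 2, and Mcpt9 had 0.29, 0.46, 0.11 and 0.19. With 1 library left out they ran from −1.16 to 1.65 for Mcpt4 and from −0.66 to 0.19 for Mcpt9. Mcpt9 on day 5 against naive in Cpa3Cre/+ had −0.30 with the block. On day 1 Cma1 had 1.06 without Cpa3Cre/+ day 1 replicate 1 (range −2.53 to 1.06), and on day 5 Cma2 had 0.08 without Cpa3+/+ day 5 replicate 2 (range −2.28 to 0.08). The ratio of Cma2 to Mcpt1 was −0.05 with female libraries only and −0.36 without the libraries high in follicle markers, and ran from −0.21 to 0.25 with 1 library left out. That of Mcpt2 ran from −0.15 to 0.01. With a prior count of 2 the r of Mcpt9 and Cma2 in Cpa3Cre/+ was 0.61 and did not pass (adjusted permutation p = 0.054); with 1 library left out it ran from 0.42 to 0.87. That of Mcpt1 and Cma1 ran from 0.40 to 0.77. Depth limited Cma1, Cma2, and Mcpt4 and Mcpt9 in immunized Cpa3Cre/+ mice, where 0 to 2 reads set the value.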
